A study of Mus musculus with 9 samples.

Results

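The 10 genes described here encode the carnitine shuttle and the core enzymes of mitochondrial fatty acid oxidation in mouse liver: Cpt1a, Slc25a20 and Cpt2 for the shuttle, and Acadvl, Acadl, Acadm, Acads, Hadha, Hadhb and Acaa2 for the spiral. The rule that picks them uses symbols and no measured value, although the set was named with earlier results of these data known. They are 10 of 22180 genes measured. All 10 were measured, each by the only probe set that carries its symbol alone, so the rule of taking the brightest probe set decided nothing for them. RNA came from the livers of 9 female mice, with 1 array per mouse, in 3 groups of 3 individual animals. Control mice were SMRT and NCoR fl/fl, with both corepressor genes floxed, and no deletion is named for them. SMRT KO mice had a liver-specific deletion of SMRT. Mice labelled SMRT and NCoR KO, called double KO here, had a liver-specific deletion of both genes. All mice were euthyroid, 7 to 9 weeks old, on standard chow with free access to food, and of a mixed 129SV/B6 background. The labels name neither the Cre line used for deletion nor the NCoR allele of the SMRT KO mice, and no group lacked NCoR alone. Any difference in background between the groups cannot be told apart from the deletion.

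Long-chain fatty acids enter the mitochondrial matrix as carnitine esters. CPT1A on the outer membrane makes the ester, the translocase SLC25A20 carries it across the inner membrane, and CPT2 turns it back into acyl-CoA. In each turn of the spiral an acyl-CoA dehydrogenase, an enoyl-CoA hydratase, a hydroxyacyl-CoA dehydrogenase and a thiolase shorten the chain and release acetyl-CoA, which the liver can burn or turn into ketone bodies. Many genes of this pathway are textbook targets of the nuclear receptor PPAR alpha, and Cpt1a is also known as a thyroid hormone-responsive gene. NCoR and SMRT hold targets of such receptors at a low level when no agonist is bound, and the series asks which role each of them has in thyroid hormone signalling in the liver.

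The hepatocyte gene albumin (Alb) had log2 values from 13.89 to 13.98 in the 9 livers, and the adipocyte gene Adipoq averaged 4.58 in control livers. Array medians lay between 5.96 and 6.02 on this scale. Levels of different probe sets are not comparable with each other, so these values do not measure how pure the tissue was. Fold changes compare each gene only with itself across livers. The summed marker levels given below weigh the brightest probe sets most and are compared only between livers. The array medians serve below only as a rough mark of low signal. Precision is limited by the 3 arrays per group, and in whole liver fewer cells of a type and less RNA per cell cannot be told apart.

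None of the 10 enzymes passed limma's test in any of the 3 comparisons. A gene was called at an adjusted p under 0.05, after Benjamini-Hochberg adjustment over all 22180 genes. In SMRT KO against control livers 0 of 10 were called, where 0.00451% of all genes were (1 gene, which was higher). Double KO and control livers also gave 0 of 10, against 0.843% of all genes (0.523% higher and 0.32% lower). Between double KO and SMRT KO livers it was 0 of 10, against 1.19% (0.748% higher and 0.437% lower). At these background shares a count of 0 does not set the enzymes apart from other genes. At an unadjusted limma p under 0.05, SMRT KO against control livers had 2 of 10 enzymes, both lower, beside 6% of all genes (2.66% higher and 3.34% lower). Double KO against control livers had 1 of 10, which was higher, beside 10.8% (5.34% higher and 5.43% lower). For double KO against SMRT KO livers there were 2 of 10, both higher, beside 10.5% (5.66% higher and 4.81% lower). The smallest adjusted p among the 30 tests was 0.186, for Cpt2 in double KO against SMRT KO livers.

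The estimates were small and their intervals narrow. Over the 30 tests the log2 fold changes ran from -0.26 (Slc25a20, SMRT KO against control) to 0.31 (Cpt2, double KO against SMRT KO), with standard errors of 0.061 to 0.143. The 95% intervals of 29 of the 30 lay within a change of 1.5-fold either way, and the interval of Slc25a20 in double KO against SMRT KO livers reached 1.51-fold higher. All 30 lay within a change of 2-fold. A change of 2-fold in the array signal of any of these genes therefore lay outside the interval in every comparison, and 5 of the 30 intervals excluded 0. The intervals bound the signal and not the RNA level itself. Hadhb, at 6.79 to 7.27, lay closest of the 10 to the array medians of 5.96 to 6.02. In SMRT KO against control livers 4 of 10 enzymes had a log2 fold change above 0, beside 50.4% of all genes, and the median was -0.08, beside 0.0009 over all genes. Double KO against control livers had 5 of 10 above 0, beside 51.3%, with a median of -0.02 beside 0.004. Double KO against SMRT KO livers had 5 of 10 above 0, beside 50.6%, with a median of 0.02 beside 0.002.

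**Figure D1:**
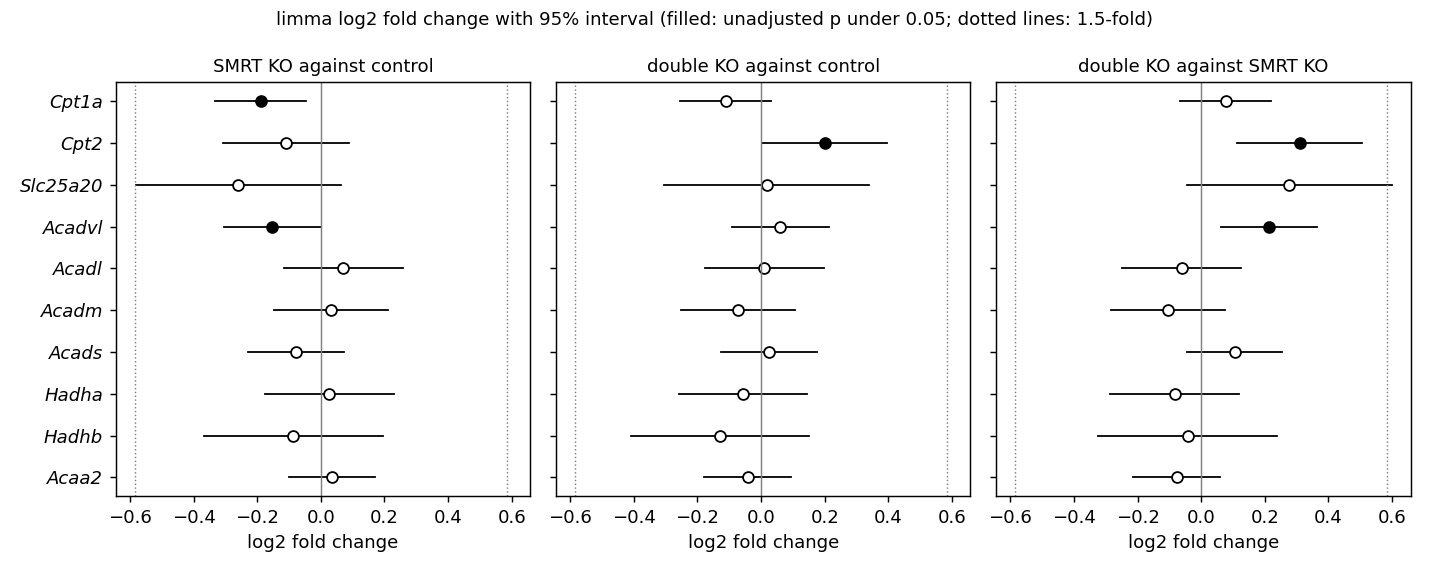
Log2 fold change of each of the 10 enzymes (horizontal axis) with its 95% interval from limma, in a panel for each pair of groups (3 mice a group); filled points have an unadjusted p under 0.05, and dotted lines mark a change of 1.5-fold. The 30 intervals crowd around 0, and the 1 that reaches past 1.5-fold is that of Slc25a20 on the right.

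Of the shuttle genes, Cpt1a, the rate-controlling step of fatty acid entry, had its lowest mean in SMRT KO livers. Its log2 values were 11.98, 12.00 and 11.92 in control, 11.76, 11.78 and 11.80 in SMRT KO, and 11.80, 11.82 and 11.95 in double KO livers. The 3 SMRT KO livers lay below all 3 controls, and the double KO livers overlapped both other groups, with replicate 3 within the control range. The means were 11.97 ± 0.0420 (SD, n = 3) in control, 11.78 ± 0.0229 in SMRT KO and 11.86 ± 0.0830 in double KO livers. Between SMRT KO and control livers the log2 fold change was -0.19 (standard error 0.0636, 95% interval -0.33 to -0.05), which is 1.14-fold lower, with an unadjusted limma p of 0.0151 and an adjusted p of 0.766. Double KO against control gave -0.11 (interval -0.25 to 0.03, adjusted p = 0.597). Double KO against SMRT KO gave 0.08 (interval -0.07 to 0.22, adjusted p = 0.770).

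Slc25a20, the carnitine-acylcarnitine translocase, had the largest spread between mice of the same group among the 10. Its log2 values were 10.24, 10.48 and 10.21 in control, 10.14, 10.20 and 9.83 in SMRT KO, and 10.27, 10.12 and 10.61 in double KO livers. The SMRT KO livers lay below all 3 controls, replicate 2 only narrowly, and double KO livers spanned from below the lowest to above the highest control. Its pooled SD within groups was 0.204, above that of 86.7% of all genes. The log2 fold change was -0.26 in SMRT KO against control livers (standard error 0.143, interval -0.58 to 0.06, adjusted p = 0.883) and 0.02 in double KO against control livers (interval -0.30 to 0.34, adjusted p = 0.983). SMRT KO replicate 3 and double KO replicate 3 were the lowest and the highest of the 9 livers for this gene.

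Cpt2, the inner-membrane transferase, had its highest values in double KO livers. Its log2 values were 11.09, 11.29 and 11.12 in control, 10.97, 11.17 and 11.04 in SMRT KO, and 11.34, 11.27 and 11.50 in double KO livers. The double KO livers lay above all 3 SMRT KO livers, but double KO replicate 2 fell below control replicate 2. Against SMRT KO the log2 fold change was 0.31 (standard error 0.0879, interval 0.11 to 0.51), a 1.24-fold higher level, with an unadjusted limma p of 0.00613 and an adjusted p of 0.186. Against control it was 0.20 (interval 0.002 to 0.40, adjusted p = 0.458). SMRT KO against control gave -0.11 (interval -0.31 to 0.09, adjusted p = 0.921). The 3 shuttle genes thus did not share a direction in double KO livers, where Cpt1a had a fold change below 0 and Cpt2 above 0.

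**Figure D2:**
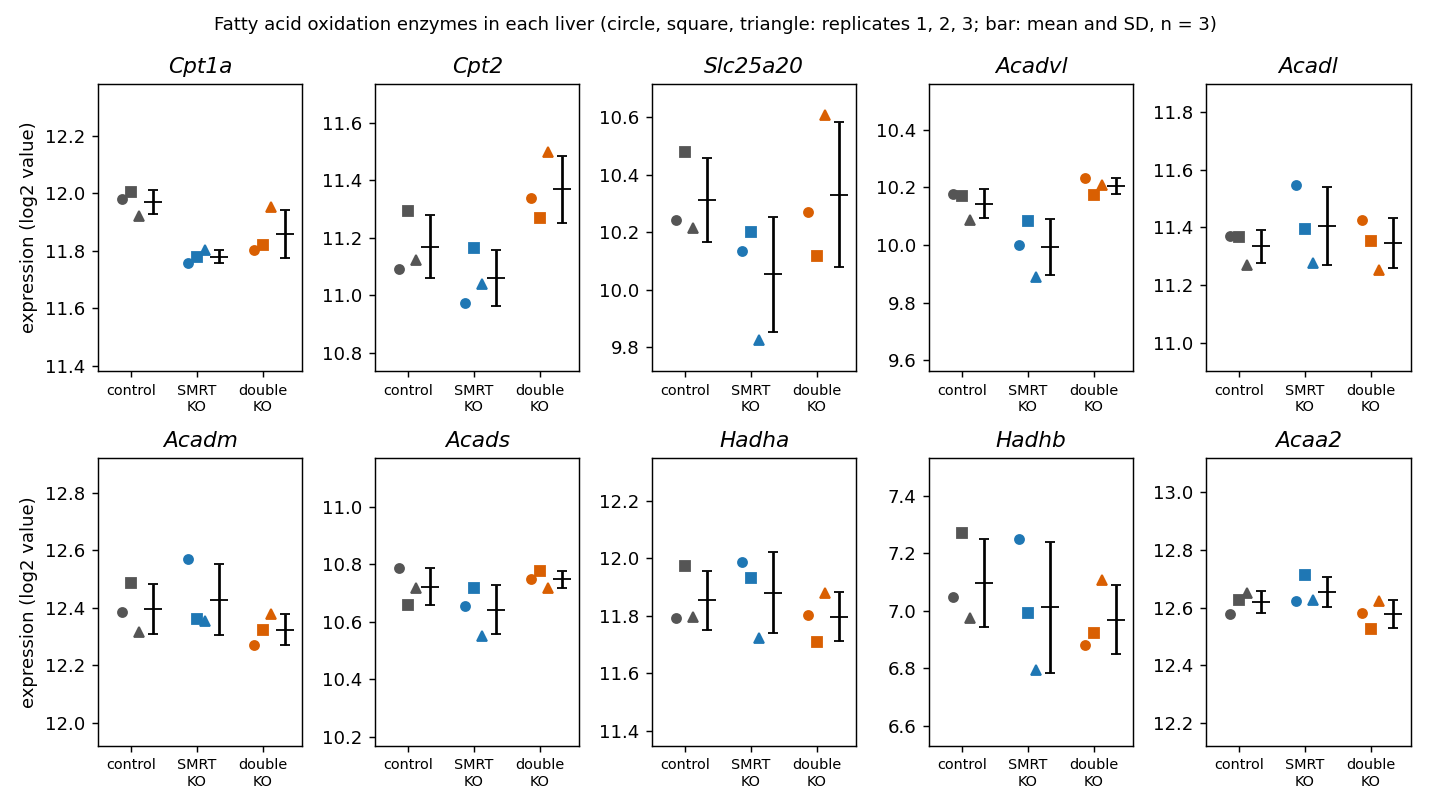
Log2 expression (vertical axis, each panel spanning 1 log2 unit) of the 10 enzymes in every liver, with circle, square and triangle for replicates 1, 2 and 3 and a bar for the mean and SD of the 3 mice. The groups overlap in most panels; the SMRT KO livers stand below all controls for Cpt1a, Slc25a20 and Acadvl, and the double KO livers above all SMRT KO livers for Cpt2 and Acadvl.

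The 4 acyl-CoA dehydrogenases take the first step of each turn and differ in the chain length they prefer, from very long (Acadvl) through long (Acadl) and medium (Acadm) to short (Acads). Acadvl had log2 values of 10.18, 10.17 and 10.09 in control, 10.0004, 10.08 and 9.89 in SMRT KO, and 10.23, 10.17 and 10.21 in double KO livers. The SMRT KO livers lay below all livers of both other groups, narrowly for replicate 2 against control replicate 3. The log2 fold change was -0.15 in SMRT KO against control livers (interval -0.30 to -0.0006), with an unadjusted limma p of 0.0493 and an adjusted p of 0.832. It was 0.21 in double KO against SMRT KO livers (standard error 0.0676, interval 0.06 to 0.37), with an unadjusted limma p of 0.0111 and an adjusted p of 0.252. Double KO and control livers differed by 0.06 (interval -0.09 to 0.21, adjusted p = 0.826).

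The other 3 dehydrogenases overlapped in every comparison. Acadl had log2 values of 11.37, 11.37 and 11.27 in control, 11.55, 11.39 and 11.27 in SMRT KO, and 11.43, 11.35 and 11.25 in double KO livers. Acadm, the enzyme whose human deficiency is screened for in newborns, had 12.38, 12.49 and 12.31 in control, 12.57, 12.36 and 12.35 in SMRT KO, and 12.27, 12.32 and 12.38 in double KO livers. For both genes SMRT KO replicate 1 was the highest of the 9 livers, and the other SMRT KO livers lay within the control range for Acadm and, for Acadl, at 11.39 just above it and at 11.27 within it. Acads had 10.79, 10.66 and 10.72 in control, 10.66, 10.72 and 10.55 in SMRT KO, and 10.75, 10.78 and 10.72 in double KO livers. The largest estimate of these 3 genes was 0.11 for Acads in double KO against SMRT KO livers (interval -0.05 to 0.26, adjusted p = 0.676), followed in size by Acadm at -0.10 in the same comparison (interval -0.28 to 0.08, adjusted p = 0.750).

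Hadha and Hadhb encode the 2 subunits of the mitochondrial trifunctional protein, which carries out the last 3 steps on long chains, and Acaa2 encodes a matrix thiolase. Hadha had log2 values of 11.79, 11.97 and 11.80 in control, 11.99, 11.93 and 11.72 in SMRT KO, and 11.80, 11.71 and 11.88 in double KO livers. Hadhb had 7.05, 7.27 and 6.98 in control, 7.25, 6.99 and 6.79 in SMRT KO, and 6.88, 6.92 and 7.11 in double KO livers. The groups overlapped for both genes in all comparisons, with the widest estimate at -0.13 for Hadhb in double KO against control livers (interval -0.41 to 0.15, adjusted p = 0.796). Acaa2 was among the steadiest genes on the array, with log2 values of 12.58, 12.63 and 12.65 in control, 12.62, 12.71 and 12.63 in SMRT KO, and 12.58, 12.53 and 12.62 in double KO livers. Its pooled SD within groups was 0.0466, and 5.05% of all genes had a smaller one. Its estimates were 0.04, -0.04 and -0.08 in the 3 comparisons, with adjusted p from 0.756 to 0.969.

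Counted over the 10 enzymes, the 3 mice of each group did not overlap for 3 genes in SMRT KO against control livers (Cpt1a, Slc25a20 and Acadvl, all lower), where 8.16% of all genes did not (3.8% higher and 4.36% lower). None of the 10 stood apart in double KO against control livers, beside 15% of all genes (7.73% higher and 7.25% lower). Between double KO and SMRT KO livers 2 stood apart (Cpt2 and Acadvl, both higher), beside 13.8% (7.54% higher and 6.21% lower). Both comparisons with SMRT KO livers share the SMRT KO mice, so a low SMRT KO value enters both. The test of the double KO against the SMRT KO group is also the test of whether the differences of the 2 knockout groups from control are unequal, and it called 0 of the 10.

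Part of the low SMRT KO values came from 1 mouse. SMRT KO replicate 3 was the lowest of its group for 7 of the 10 enzymes and the lowest of all 9 livers for 4 of them (Slc25a20, Acadvl, Acads and Hadhb). The median over the 10 enzymes of the difference from the control mean was -0.15 on the log2 scale in this liver, against -0.03 and -0.02 in the other SMRT KO livers, -0.06 to 0.06 in controls and -0.08 to 0.01 in double KO livers. Without this mouse the median log2 fold change of the enzymes in SMRT KO against control livers was -0.01 in place of -0.08. Without it Cpt1a had a log2 fold change of -0.20 and Acadvl of -0.10. In lists described below, this liver was the lowest of 9 for 8 of 17 mitochondrial partner genes. It was the lowest for 7 of 13 peroxisomal and omega oxidation genes, but for only 3 of 16 respiratory chain and mass genes. SMRT KO replicate 1 was the lowest of 9 for 11 of those 16, and for 5 of the 17 partner genes. Over the partner genes the median difference from the control mean was -0.10 in SMRT KO replicates 1 and 3 alike. SMRT KO replicate 3 was also the highest of 9 for 5 of 10 lymphocyte and neutrophil markers. The same liver had the highest level of the macrophage markers, whose median difference from the control mean was 0.32, against 0.11 and 0.24 in the other SMRT KO livers, -0.05 to 0.12 in controls and -0.13 to 0.08 in double KO livers. The summed level of the 12 macrophage markers was 12.53 to 12.75 (log2) in SMRT KO, 12.33 to 12.52 in control and 12.25 to 12.52 in double KO livers. All 12 had a fold change above 0 in SMRT KO against control livers, beside 50.4% of all genes, with 0 of 12 called. Their part in the enzyme values was not tested. The 13 measured hepatocyte markers had a summed level of 16.83 to 16.86 in SMRT KO, 16.85 to 16.89 in control and 16.74 to 16.76 in double KO livers. Of these 13, 2 fell in double KO against control livers by limma, beside 0.32% of all genes. They were Pck1, which commits carbon to glucose production (-0.68, adjusted p = 0.00395), and Serpina1a (-0.47, adjusted p = 0.0251). Serpina1a is a secretory protein gene, a member of a family of near-identical copies. The part of the hepatocyte marker shift in the enzyme values was not tested.

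The enzymes followed each other loosely across livers. Over the 45 pairs of enzymes, Pearson's r across the 9 livers had a median of 0.16, ranged from -0.49 to 0.85 and was above 0 in 32 pairs. All values of a liver share its RNA, its array and its normalization, so these are descriptions. The closest pair was Hadha with Hadhb (r = 0.85, Spearman's rho = 0.75, 9 livers), followed by Acadm with Hadhb (r = 0.85, rho = 0.85). After the group means were removed the pair Acadm and Hadhb had r = 0.94, Slc25a20 and Hadha 0.91, and Hadha and Hadhb 0.90. Without the 2 livers farthest from the median of Hadha, SMRT KO replicate 1 and control replicate 2, its r with Hadhb was 0.64 over 7 livers. Both of those livers were high for both genes, at 11.99 and 11.97 for Hadha and 7.25 and 7.27 for Hadhb. Acaa2 was least like the others, with a mean r of -0.02 to the remaining 9 enzymes, and Slc25a20 most, with 0.42.

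**Figure D3:**
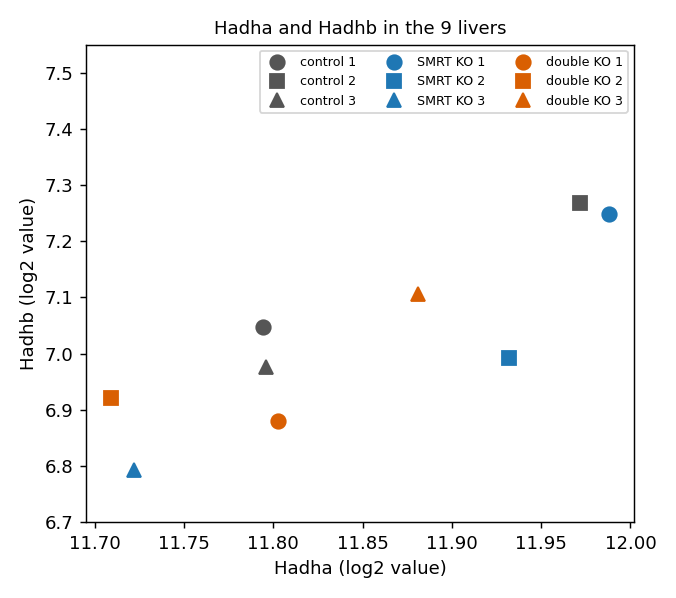
Log2 value of Hadha (horizontal axis) against that of Hadhb (vertical axis) in the 9 livers, coloured by group, with 1 symbol per replicate number. SMRT KO replicate 3 is the lowest point and double KO replicate 2 the leftmost, while SMRT KO replicate 1 and control replicate 2 lie at the upper right. Double KO replicate 2 is lower than double KO replicate 1 for Hadha but higher for Hadhb.

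Hadha and Hadhb lie head to head on chromosome 5. In RefSeq (GRCm38.p6) 272 bases separate their annotated starts, and the 250 bases upstream of each share 228 bases. The sequence is shown because it lies between both genes, and those of Cpt1a, Cpt2 and Acadvl because these had the smallest unadjusted p among the 10. Each runs 5′ to 3′ on the strand of the named gene and ends at the base before its annotated start. Capitals mark AGGTCA, the half-site bound by thyroid hormone receptors, PPARs and related receptors, and GGGCGG, the GC box bound by Sp1, on either strand. The regions are chr5:30155003-30155252 (plus strand) for Hadhb, chr19:3323051-3323300 (plus strand) for Cpt1a, chr4:107923590-107923839 (minus strand) for Cpt2 and chr11:70015429-70015678 (minus strand) for Acadvl.
Hadhb: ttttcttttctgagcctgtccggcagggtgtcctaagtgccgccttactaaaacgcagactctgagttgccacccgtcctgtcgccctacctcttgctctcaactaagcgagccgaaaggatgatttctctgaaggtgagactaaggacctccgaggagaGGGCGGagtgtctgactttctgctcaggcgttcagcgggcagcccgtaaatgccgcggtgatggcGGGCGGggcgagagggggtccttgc
Cpt1a: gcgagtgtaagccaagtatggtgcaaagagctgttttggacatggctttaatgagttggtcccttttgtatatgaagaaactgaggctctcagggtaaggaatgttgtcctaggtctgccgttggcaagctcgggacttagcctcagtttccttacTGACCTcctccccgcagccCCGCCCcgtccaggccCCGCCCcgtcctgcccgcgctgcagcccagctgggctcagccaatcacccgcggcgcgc
Cpt2: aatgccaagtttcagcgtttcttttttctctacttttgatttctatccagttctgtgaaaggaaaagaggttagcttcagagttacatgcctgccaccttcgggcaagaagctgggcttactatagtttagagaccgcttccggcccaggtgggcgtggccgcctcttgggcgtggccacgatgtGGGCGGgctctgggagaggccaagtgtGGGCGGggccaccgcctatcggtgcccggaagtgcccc
Acadvl: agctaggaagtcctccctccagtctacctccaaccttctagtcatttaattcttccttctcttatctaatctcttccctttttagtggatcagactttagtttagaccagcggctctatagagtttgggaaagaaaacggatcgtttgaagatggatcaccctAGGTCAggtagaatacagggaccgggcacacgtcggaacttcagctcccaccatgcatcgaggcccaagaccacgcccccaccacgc

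Upstream sequence was at hand for 9 of the 10 genes. The half-site AGGTCA was found in 3 of these 9 windows (Cpt1a, Acadvl and Acadm), and in 14% of all 32851 windows of 250 bases in the RefSeq table. Cpt1a and Acadvl each hold 1, at 89 to 94 and 82 to 87 bases before the start. Direct repeats of AGGTCA hold the half-site by construction. The repeat with 1 base of any kind between the copies (DR1, the PPAR arrangement) was in 0 of the 9 windows and in 0.0335% of all. The repeat with 4 bases between (DR4, the thyroid hormone receptor arrangement) was in 0 of the 9 and in 0.0152% of all. GGGCGG was in 7 of the 9 windows and in 32.7% of all. The only match in the Hadha window is the same site as the Hadhb match at 85 to 90 bases before that gene's start, so 1 site is counted in both windows. Matches were exact and counted on both strands. They describe letters in these windows, not binding, and sites elsewhere in the genes were not searched.

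The rest of the mitochondrial pathway was read from a list of 18 partner genes, of which 17 were measured. With SMRT KO alone 0 were called, and 2 of 17 had a fold change above 0, beside 0.00451% and 50.4% of all genes. In double KO against control livers 2 rose, 0 fell and 15 did not pass, beside 0.523% of all genes risen and 0.32% fallen. Of the 17, 13 were above 0, beside 51.3%, and the median log2 fold change was 0.14 beside 0.004 over all genes. At an unadjusted limma p under 0.05 there were 4 of 17, beside 10.8% of all genes. The risen genes were Acacb, the carboxylase whose product malonyl-CoA inhibits CPT1 (1.31, standard error 0.193, adjusted p = 0.0182 by limma), and Crat, the carnitine acetyltransferase (1.32, standard error 0.247, adjusted p = 0.0486). Acacb was at 9.03, 8.50 and 9.16 in control, 8.92, 8.34 and 8.46 in SMRT KO, and 10.06, 10.36 and 10.21 in double KO livers, so the double KO livers stood above all others. Crat has 2 probe sets, and the dimmer gave a difference of 0.27 against 1.32 in the brighter. Acacb (1.63, adjusted p = 0.0052) and Mlycd (0.53, adjusted p = 0.0133) rose in double KO against SMRT KO livers, and 0 fell. Mlycd degrades malonyl-CoA. Of all genes 0.748% rose and 0.437% fell in this comparison. Of the 17, 14 were above 0, beside 50.6% of all genes, with a median of 0.26 by limma's fit. At an unadjusted limma p under 0.05 there were 10 of 17, beside 10.5% of all genes. The gene that makes the CPT1 inhibitor and the gene that removes it were thus both higher in double KO than in SMRT KO livers, while Cpt1a itself differed by 0.08 between these groups. Against control the Acacb call was lost without control replicate 1 and also without any single double KO mouse (highest adjusted p 0.0942) and over all probe sets, and the Crat call in 8 of the 9 fits that left out 1 mouse, all but that without control replicate 2, and also with the replicate block, with only the 2 groups compared and over all probe sets (highest adjusted p 0.180 over all alternatives). The Mlycd call was lost without SMRT KO replicate 1 and without double KO replicate 2 (highest adjusted p 0.0525).

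Peroxisomal and omega oxidation genes, which handle very long chains and other substrates outside mitochondria, held the largest median of the 6 related lists when double KO livers were set against control. Among the 13 genes measured, 10 were above 0 in double KO against control livers, beside 51.3% of all genes. The list median was a log2 fold change of 0.38, and 7 of 13 had an unadjusted limma p under 0.05, beside 10.8% of all genes. In this comparison 2 rose and 0 fell, beside 0.523% and 0.32% of all genes. These were Ehhadh, the peroxisomal bifunctional enzyme (1.59, standard error 0.168, adjusted p = 0.00357), and Acaa1b, a peroxisomal thiolase (1.34, standard error 0.178, adjusted p = 0.0114). Ehhadh was at 12.99, 12.93 and 12.96 in double KO livers against 11.30, 11.76 and 11.03 in control and 11.54, 11.25 and 11.16 in SMRT KO livers, with no overlap. Its mitochondrial counterpart Hadha had a log2 fold change of -0.06 in the same comparison (interval -0.26 to 0.15). In double KO against SMRT KO livers Ehhadh (1.64), Acaa1b (1.45) and the peroxisomal transporter Abcd3 (0.67, adjusted p = 0.0197) rose. Of all genes 0.748% did. The list median was 0.42, and 9 of 13 had an unadjusted limma p under 0.05, beside 10.5% of all genes. Acaa1b is a close copy of Acaa1a, and probes can take up RNA of both. The call of Acaa1b against control was lost without any single double KO mouse (highest adjusted p 0.0610), and so was that of Abcd3 against SMRT KO, also with only the 2 groups compared and over all probe sets (0.0939). The calls of Ehhadh held whichever mouse was left out, with a highest adjusted p of 0.0281.

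The genes that activate fatty acids and those of ketone bodies showed 0 calls in all 3 comparisons. The shares of all genes called were 0.00451% in SMRT KO against control, 0.843% in double KO against control and 1.19% in double KO against SMRT KO livers. Under the alternatives in double KO against control livers up to 2 activation genes and up to 1 ketone body gene were called, and against SMRT KO livers up to 1 activation gene. Of 9 measured activation and binding genes 8 had a fold change above 0 in double KO against control livers, beside 51.3% of all genes. The 9 ran from -0.11 for Slc27a5 (adjusted p = 0.732) to 0.43 for the acyl-CoA synthetase Acsl5 (adjusted p = 0.0628). Their median was 0.07, and 3 had an unadjusted limma p under 0.05, beside 10.8% of all genes. Of 4 measured ketone body genes the ends were Acat1 at -0.15 (adjusted p = 0.802) and the monocarboxylate transporter Slc16a1 at 0.23 (adjusted p = 0.780), with 0 under that unadjusted p.

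Of 15 regulators and PPAR alpha sentinels 7 had a fold change above 0 in double KO against control livers, beside 51.3% of all genes. The list median was -0.04. In either direction, 8 of the 15 had an unadjusted limma p under 0.05, beside 10.8% of all genes. Mean values in control and double KO livers were 5.97 and 5.92 for Fgf21, near the array medians. They were 10.12 and 9.94 for Angptl4, and 10.92 and 11.55 for Vnn1. None of these genes was called. In double KO against control livers 1 of the 15 rose and 0 fell, beside 0.523% and 0.32% of all genes. This was Pdk4, the kinase that turns off pyruvate dehydrogenase and so spares glucose, with a log2 fold change of 2.36 against control (standard error 0.391, adjusted p = 0.0281) and 2.38 against SMRT KO livers (adjusted p = 0.0229). It was at 9.17, 9.13 and 10.43 in double KO livers, and between 6.7 and 7.76 in the other 6. Ppara itself was at 0.002 against control (interval -0.19 to 0.20, adjusted p = 0.997). Ppargc1a, the coactivator of this pathway, had -0.94 (standard error 0.244, adjusted p = 0.159), and Lpin1, which acts with it, -1.19 (standard error 0.290, adjusted p = 0.130); both were chosen after their values were seen. Their 3 double KO livers lay below all others, at 7.61 to 7.94 for Ppargc1a and 10.03 to 10.71 for Lpin1. Of all genes 7.25% lay wholly lower in double KO than in control livers, and 6.21% wholly lower than in SMRT KO livers. Both genes were picked by their values, so their separation is only a description. The Pdk4 call against control was lost in 6 of the 9 fits that left out 1 mouse (control replicates 1 and 3, SMRT KO replicate 3 and any double KO mouse), with the replicate block, with only the 2 groups compared and over all probe sets (highest adjusted p 0.120 over all alternatives). The call against SMRT KO was lost without SMRT KO replicates 2 and 3 and double KO replicate 2, and under the same 3 other settings (highest adjusted p 0.0760).

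**Figure D4:**
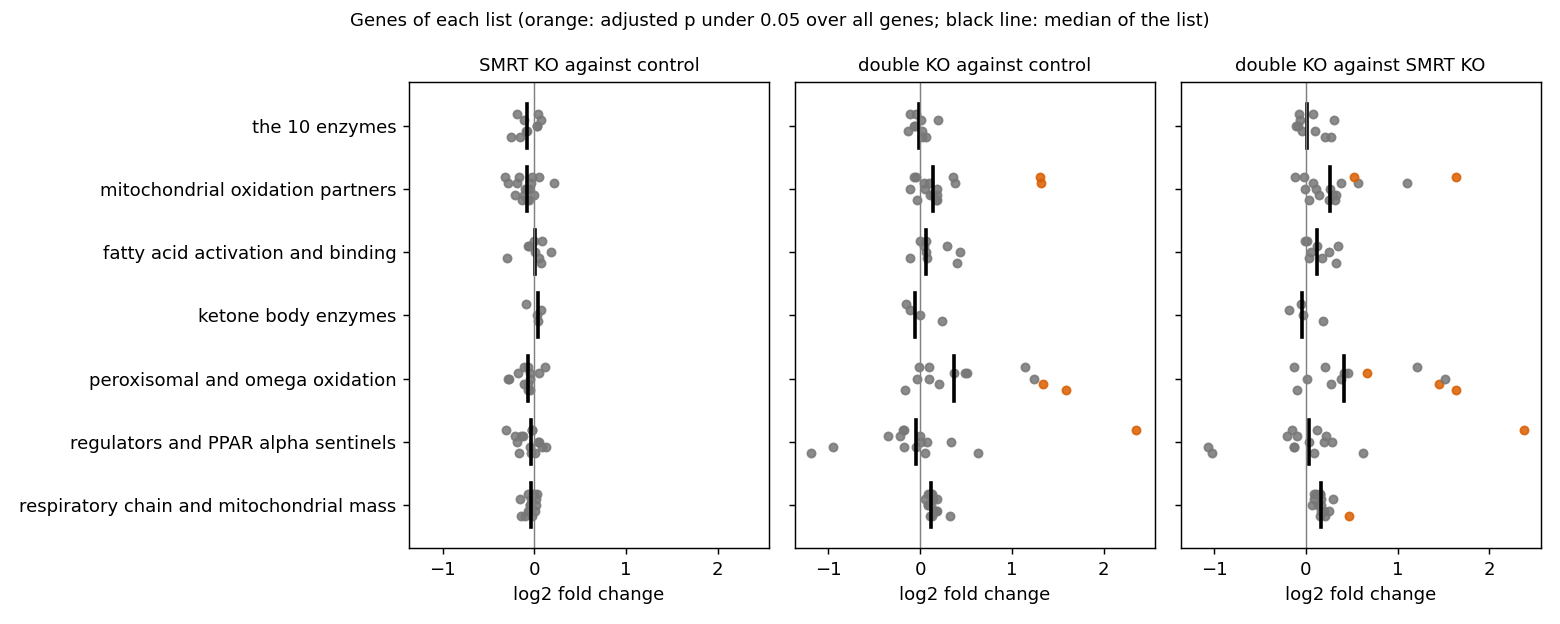
Log2 fold change (horizontal axis) of every measured gene of the 10 enzymes and of 6 related lists in the 3 comparisons, with genes called by limma in orange and the list median as a black line. The 10 enzymes show no orange point, while the partner, peroxisomal and regulator lists hold called genes in both comparisons with double KO livers.

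Genes of the respiratory chain and of mitochondrial mass had small fold changes of 1 sign in double KO livers. Of 16 measured genes 16 had a fold change above 0 in double KO against control livers, where 51.3% of all genes did, with a median log2 fold change of 0.12 and a largest value of 0.33 for Cs, the citrate synthase. None was called against control, beside 0.843% of all genes. An unadjusted limma p under 0.05 was found for 6 of 16, beside 10.8% of all genes. Against SMRT KO livers Cs rose (0.47, standard error 0.0826, adjusted p = 0.0300) and 15 did not pass. Of all genes 0.748% rose in that comparison. In each double KO liver all 16 lay above their control mean, and the liver's median difference was 0.11, 0.11 and 0.15. The 10 enzymes in the same livers had medians of -0.04, -0.08 and 0.01, with 6, 6 and 4 of them below their control mean. The call of Cs was lost without SMRT KO replicates 1 and 3 and without any single double KO mouse, with only the 2 groups compared and over all probe sets (highest adjusted p 0.132 over all alternatives). None of the 16 differences from control passed limma's test, and the difference between the lists was not tested.

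**Figure D5:**
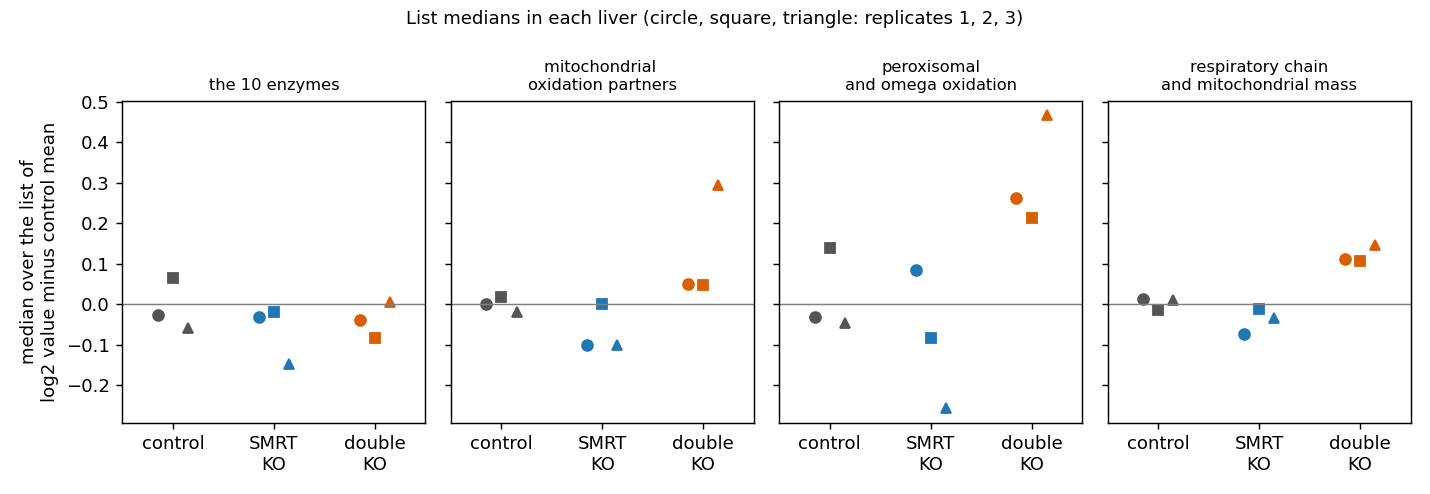
Median over each list of the log2 value minus the control mean (vertical axis) in every liver, for the 10 enzymes, 17 partner genes, 13 peroxisomal and omega oxidation genes and 16 respiratory chain and mass genes. The 10 enzymes stay between -0.15 and 0.06 with the groups mixed, while the double KO livers lie above all others in the 3 remaining panels.

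The genes whose levels followed the 10 enzymes most closely were named by mean Pearson's r to the 10 over the 9 livers. They were 9030404E10Rik (0.52), Gm8225 (0.52), Tll1 (0.51), Kcnk9 (0.50) and Tnfrsf12a (0.50). These means are low because the enzymes follow each other loosely, with a mean r among themselves of 0.21. Tll1, for example, had r = 0.96 with Slc25a20 and 0.07 with Acadl. Its group means of 5.48 to 5.55 lay below the array medians of 5.96 to 6.02, as did those of Kcnk9 and 9030404E10Rik. The genes were picked as the highest of all genes outside the 10 over only 9 livers, so their r is a description.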

How the data were processed

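Total liver RNA (200 ng per mouse) was amplified and hybridised to Affymetrix whole-transcript arrays, per the labels' protocols. The deposited log2 values, 1 per probe set and mouse, are RMA output according to the submitters' processing notes, with the RMA version not given there. RMA quantile-normalizes arrays together, so a shift shared by most genes would not show. Of 41345 probe sets 23521 had exactly 1 symbol in the platform annotation, and the brightest per gene was kept (22180 genes, no filter on level).

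Differences were estimated with limma 3.58.1 under R 4.3.3 (lmFit and eBayes, two-sided) in 1 model over the 9 arrays, with 6 residual and 3.36 prior degrees of freedom and Benjamini-Hochberg adjustment over all genes in each comparison. Every adjusted p in the text is limma's. Exact permutation of 3 against 3 mice cannot go below p = 0.1 and was not used. The steps were tested on simulated data. Members, lists and named genes were chosen with earlier results of these data known, though no measured value enters the rule for the members. Named are all 10 enzymes and the called genes of each related list, or its extremes where none was called. Outside this rule, Fgf21, Angptl4, Vnn1, Ppara, Ppargc1a and Lpin1 of the regulator list were also named, though not called. GGGCGG was added after the other motifs had been searched. Marker lists of stellate cells, endothelium, cholangiocytes, lymphocytes and neutrophils, and adipocytes and muscle gave 0 called genes in each comparison, except 1 stellate gene (Lrat) that fell in both comparisons of double KO livers. Of all genes 0.32% fell against control and 0.437% against SMRT KO livers. Alternatives left out each mouse, used the replicate number as a block, only the 2 groups compared, cyclic loess, probe set means, all probe sets, no dim genes, trend and robust eBayes, or array weights. Genotypes were taken from the labels and not checked.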

Additional observations from a re-analysis of the deposited data

How the results depend on the processing

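The count of 0 called enzymes held in all 17 alternatives of each comparison, 51 fits in all, with the lowest adjusted p of any enzyme at 0.632 in SMRT KO against control, 0.311 in double KO against control and 0.138 in double KO against SMRT KO livers. Of 510 enzyme values 493 kept their direction, and the other 17 changed sign. Many of the 510 could not change. Leaving out a mouse of the group not compared, the replicate block and only the 2 groups compared leave an enzyme's fold change as it was. So do probe set means, all probe sets, no dim genes, and trend and robust eBayes. Directions under these settings therefore agreed by construction. In SMRT KO against control livers without 1 mouse, Hadha ranged from -0.0271 to 0.106, Acadm from -0.0382 to 0.0785 and Hadhb from -0.205 to 0.0230. In double KO against control livers Slc25a20 ranged from -0.120 to 0.125, Acadl from -0.0307 to 0.0561, Acads from -0.0051 to 0.0590 and Hadha from -0.0981 to 0.0025, with Slc25a20 lowest without double KO replicate 3, and with array weights Slc25a20 was at -0.000663. In double KO against SMRT KO livers Acadl ranged from -0.126 to 0.0099 and Hadhb from -0.152 to 0.0764. The cause was not tested. The enzymes' median ranged without 1 mouse from -0.107 to -0.0053 in SMRT KO against control (the latter without SMRT KO replicate 3), from -0.0815 (without double KO replicate 3) to -0.0013 in double KO against control, and from -0.0159 to 0.0717 (without SMRT KO replicate 1) in double KO against SMRT KO livers.

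Counts over all genes were 1, 187 and 263 in these comparisons. Without 1 mouse they ranged from 0 to 23, 61 to 179 and 101 to 234. With only the 2 groups compared they were 0, 109 and 124, and over all 41345 probe sets 6, 81 and 156. Array weights gave 285 in double KO against control livers. Deviations of same-numbered mice correlated at -0.0845 to 0.117, and those of different-numbered mice at -0.154 to 0.165. These values show no pairing by number, but do not decide whether the mice were paired. With the replicate number as a block the counts were 2, 152 and 195, and 0 enzymes were called. Alternatives on the related lists were added after seeing the data.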
